A study of Mus musculus with 50 samples.

Results

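Tissue of the paraventricular nucleus (PVN), taken from DBA/2J mice 8 h after forced swimming, was set against that of non-stressed DBA/2J mice on 10 dual-colour cDNA arrays, which were all arrays of the series whose labels name this pair, 10 of 50. The stressed mice swam for 5 min, went back to their home cages and were killed 8 h later, and the non-stressed mice did not swim. All were males of 3 to 5 months and housed singly, and the labels name no transgene or drug. Also used here was a pool of DBA/2J mice killed 4 h after a like swim, set against the same non-stressed DBA/2J pool on 10 arrays. These mice swam later in the day than the 8 h mice, since all were killed at the same clock time. A pool of C57BL/6J mice killed 8 h after such a swim was set against a non-stressed C57BL/6J pool, also on 10 arrays. The punched tissue of several animals was pooled, so that there was 1 pool for each of the 6 conditions of the series, and the stressed pool carried Cy5 on replicates 1 to 5 and Cy3 on replicates 6 to 10. The arrays are therefore repeated hybridisations of the same RNA. Their standard errors and p-values cover labelling and hybridisation error alone, compare 1 pool with another, and say nothing of the spread between animals. In a tissue punch, fewer cells of a type and less RNA per cell cannot be told apart.

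The PVN holds the neurons that release corticotropin-releasing hormone and so start the hormonal response to stress, and other neurons that make vasopressin, oxytocin or thyrotropin-releasing hormone. The glucocorticoids that the adrenal then secretes return to the brain and bind a receptor that is held ready in the cytosol by the chaperone Hsp90 with partners such as p23 (Ptges3) and Hsp70 proteins. Peptide hormones of these neurons are folded in the endoplasmic reticulum, cut in secretory granules and released by vesicle fusion. On these arrays Avp, the vasopressin gene, had a ratio of -0.11 ± 0.12 (log2, mean ± SE, 10 arrays, in the direction of the labelled dyes, which opposes that of the published folds), with a lowest, median and highest array of -0.87, -0.01 and 0.40. Oxt had -0.06 ± 0.15 and Trh 0.06 ± 0.16, and the signal of both lay below the limit set by the empty spots on all 10 arrays, as defined below. Avp exceeded it on 3 arrays. No clone could be matched to Crh, so that of the defining peptides of the PVN only Avp gave a signal above this limit.

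Each array held 22824 cDNA clones besides its controls, and 9233 of them could be given a RefSeq symbol. A clone was called where its mean ratio passed 1.41-fold either way (0.5 on the log2 scale) with a Benjamini-Hochberg adjusted p under 0.05 in limma over the 22824 clones. All ratios are log2 of the stressed over the non-stressed pool by the labelled dyes. The published fold changes of this comparison carry the opposite sign. So do the study's PCR measurements of App at 8 h and Gnai2 at 4 h. In the same section the study also reports an up-regulation by in situ hybridisation. The array files do not settle which direction holds. The words rose, fell, higher and lower follow the labelled dyes alone, and each direction below can be read with the sign turned, the first Ptges3 clone as 0.88 in place of -0.88. Turning it would turn the 4 h and the C57BL/6J comparisons alike. The arrays agreed weakly over all clones, with a Spearman correlation of 0.056 to 0.096 between arrays of the same dye orientation and of -0.0022 to 0.022 between opposite ones, and 8.00% of the clones gave more signal on 5 or more arrays than 95% of that array's empty spots, the limit used here for a bright spot.

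In the stressed pool 36 of the 22824 clones passed the test (0.158%), 18 higher (0.0789%) and 18 lower (0.0789%). The 18 lower clones lay between -0.88 and -0.52 with a median of -0.60, and 17 of them carry a gene symbol. The 18 higher clones lay between 0.50 and 1.02 with a median of 0.64, and 8 of them carry one. On 34 of the 36 clones all 10 arrays fell on the same side of 0 (1.91% of all clones, 0.995% below and 0.911% above), and all 36 had the same sign on each of the 3 scan days (30.7% of all clones). Since the 36 were chosen on these arrays, these counts describe them and support nothing. Without adjustment 2748 clones reached p under 0.05 (12%), of which 1402 lay above 0 (6.14%) and 1346 below (5.9%). Leaving out any single array left 1 call, the first Ptges3 clone, and 13 of the 36 adjusted p-values were 0.04 or more.

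**Figure D1:**
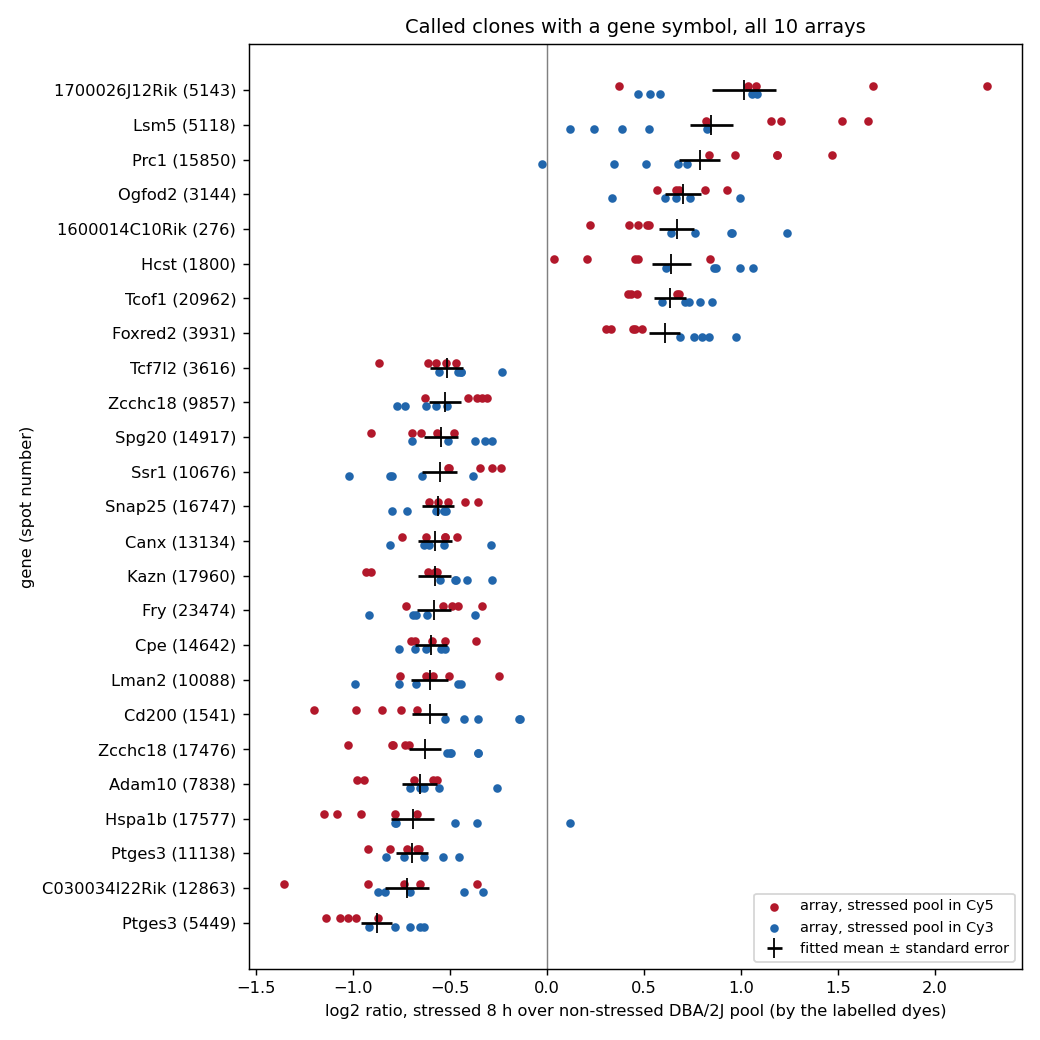
Log2 ratio of the stressed 8 h over the non-stressed DBA/2J pool (horizontal axis, by the labelled dyes) of the 25 called clones that carry a gene symbol, 1 row a clone with its spot number. Each point is an array, red where the stressed pool was in Cy5 and blue where it was in Cy3, and the black cross is the fitted mean with its standard error. Prc1 and Hspa1b each have 1 array on the other side of 0.

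Promoters of 4 of the genes that were lower are shown here because they stand for the groups described next: the chaperones Ptges3 and Hspa1b, the endoplasmic reticulum lectin Canx and the protease Adam10. RefSeq (GRCm38.p6) gives for each 250 bases before and 50 after the start of the gene, on the gene's strand, and held a promoter for 20 of the 23 genes with a called clone. They lie at chr10:128058732-128059031 on the plus strand (Ptges3), chr17:34959189-34959488 on the minus strand (Hspa1b), chr11:50325624-50325923 on the minus strand (Canx) and chr9:70678732-70679031 on the plus strand (Adam10). Capitals mark matches on either strand to the heat shock element core (GAANNTTC), the endoplasmic reticulum stress element (CCAAT and CCACG with any 9 bases between them, the first part being itself a CCAAT box), the E-box (CACGTG) and the cyclic AMP element core (TGACG).
Ptges3: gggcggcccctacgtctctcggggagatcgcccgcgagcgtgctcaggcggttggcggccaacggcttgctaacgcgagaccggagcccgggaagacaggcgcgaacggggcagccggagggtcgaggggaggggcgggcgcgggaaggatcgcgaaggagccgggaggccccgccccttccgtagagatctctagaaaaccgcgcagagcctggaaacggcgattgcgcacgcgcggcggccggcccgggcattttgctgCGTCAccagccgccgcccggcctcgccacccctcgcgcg
Hspa1b: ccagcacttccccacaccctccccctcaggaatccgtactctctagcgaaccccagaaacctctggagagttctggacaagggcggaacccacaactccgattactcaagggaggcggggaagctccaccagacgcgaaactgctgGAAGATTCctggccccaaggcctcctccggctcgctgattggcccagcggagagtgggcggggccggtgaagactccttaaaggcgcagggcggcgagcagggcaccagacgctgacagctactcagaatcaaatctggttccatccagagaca
Canx: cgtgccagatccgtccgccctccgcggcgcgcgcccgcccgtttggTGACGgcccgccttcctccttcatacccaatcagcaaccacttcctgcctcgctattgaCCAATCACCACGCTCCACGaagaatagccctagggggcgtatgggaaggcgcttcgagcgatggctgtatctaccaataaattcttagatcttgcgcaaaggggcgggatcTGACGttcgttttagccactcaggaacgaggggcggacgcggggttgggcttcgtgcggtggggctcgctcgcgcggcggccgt
Adam10: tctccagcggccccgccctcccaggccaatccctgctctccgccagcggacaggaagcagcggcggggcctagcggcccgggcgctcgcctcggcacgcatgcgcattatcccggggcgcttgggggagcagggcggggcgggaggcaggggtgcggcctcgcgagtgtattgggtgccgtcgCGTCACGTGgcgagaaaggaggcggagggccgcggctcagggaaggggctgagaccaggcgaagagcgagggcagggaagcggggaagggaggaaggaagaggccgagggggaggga

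Positions are counted with the first base of the gene as 0. Hspa1b holds the heat shock core at -104 to -97, and the other 3 promoters hold none in this phase or in the other (TTCNNGAA). Over all 32851 promoters of the table these cores occur in 7.86% and 8.52%. Canx holds the endoplasmic reticulum stress element, which 0.119% of all promoters hold, at -145 to -127, and the cyclic AMP core at -204 and -34. In Adam10 the E-box, found in 7.15% of all promoters, overlaps a cyclic AMP core, and Ptges3 has that core at 11 to 15, within the gene. The cyclic AMP core occurs in 20.8% of all promoters. None of the 4 holds the glucocorticoid element searched for (AGAACA and TGT with any 3 bases between them), which 0.414% of all promoters hold. A match of letters is a description of the window and shows no binding.

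Ptges3 encodes p23, which closes the Hsp90 clamp on clients such as the glucocorticoid receptor, and 2 of its 4 clones fell. The first had a lowest, median and highest array of -1.14, -0.89 and -0.63 and a mean of -0.88 ± 0.08 (SE, 10 arrays, adjusted p = 0.00701), a level 1.84-fold lower in the stressed pool. In the second the arrays ran over -0.92, -0.69 and -0.46, with a mean of -0.70 ± 0.08 (adjusted p = 0.0236). Both were brighter than the empty spots in both dyes on all 10 arrays, and every array of both was below 0. Another clone, as bright on all 10 arrays, lay elsewhere, with arrays from -0.05 to 0.37 and a mean of 0.13 ± 0.08 (adjusted p = 0.571), and the last, dimmer than the empty spots on all arrays, had -0.20 ± 0.15. The clones of this gene therefore disagree, and the array design does not tell which part of the transcript each one covers.

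Hspa1b, an inducible Hsp70 that refolds damaged proteins and loads clients onto Hsp90, fell by 0.69 on the log2 scale (SE 0.11, adjusted p = 0.0443). Its arrays ran over -1.15, -0.78 and 0.12, so that 9 of 10 were below 0, and the stressed pool did not exceed the empty spots on any array. The mean was -0.93 where the stressed pool carried Cy5 and -0.45 where it carried Cy3. In a joint limma fit of the series' 50 arrays this clone was not called (adjusted p = 0.195). A second clone, dim throughout, had 0.09 ± 0.24. Clones of Hspa1b can also bind the near-identical transcript of its neighbour Hspa1a. A clone that the files name heat shock protein, 1, without a symbol, went the other way and rose by 0.53 ± 0.08 (adjusted p = 0.0443), with all 10 arrays above 0 from 0.09 to 0.98. Of 114 clones with a symbol in the list of heat shock proteins and cytosolic chaperones, which leaves out the clone just named, 3 fell (the Ptges3 clones and Hspa1b) and none rose. The share called over all clones was 0.0789% in each direction. In this list 13 clones were lower and 3 higher without adjustment, where all clones gave 5.9% and 6.14%, and their median ratio was -0.03 against 0.00 for all clones. Chordc1, an Hsp90 partner, had -0.60 ± 0.12 (adjusted p = 0.0798).

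Among genes of the endoplasmic reticulum 3 had a clone that fell, Canx, Ssr1 and Lman2, and 1, Foxred2, had a clone that rose. Canx, or calnexin, which holds new glycoproteins until they are folded, fell by 0.58 (SE 0.09, adjusted p = 0.0392), its arrays ran over -0.81, -0.57 and -0.29, and it was 1.49-fold lower in the stressed pool. Its other clones had -0.49 ± 0.09 (adjusted p = 0.0564) and -0.23 ± 0.08 (adjusted p = 0.265), so that all 3 lay below 0. Ssr1, a subunit of the complex beside the translocation channel, fell by 0.55 (SE 0.09, adjusted p = 0.0478), with arrays from -1.02 to -0.24, none of them bright in the stressed pool, while 2 other clones had 0.29 ± 0.19 and -0.23 ± 0.14. Lman2, a lectin that carries glycoproteins out of the reticulum, fell by 0.60 (SE 0.09, adjusted p = 0.0434), a clone dimmer than the empty spots on all arrays, as were its 2 other clones, at 0.17 ± 0.15 and -0.03 ± 0.16. Across the 87 clones of the list for folding and translocation in the reticulum, which does not hold Foxred2 or Lman2, 2 fell and none rose. Of all clones 0.0789% were called in each direction. In it 3 were higher and 7 lower without adjustment (11.5% in all, against 12% of all clones). The median was 0.01, with -0.06 over the arrays with stressed RNA in Cy5 alone and 0.05 over those with it in Cy3.

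Cpe, carboxypeptidase E, trims the basic residues from peptide hormones in secretory granules. It fell by 0.60 (SE 0.08, adjusted p = 0.0239), 1.52-fold lower in the stressed pool, and its 10 arrays lay closely together at -0.76, -0.61 and -0.37. Dim clones of Cpe had 0.20 ± 0.17 and -0.10 ± 0.11. Snap25, the SNARE of the nerve terminal membrane, fell on 1 of 7 clones, by 0.56 (SE 0.08, adjusted p = 0.034), with arrays at -0.80, -0.55 and -0.35. The 4 Snap25 clones that were bright in both dyes on all arrays had -0.26 to -0.20, with adjusted p-values of 0.249 to 0.36, and the remaining 2, both dim, had 0.37 ± 0.25 and 0.07 ± 0.16. In the list of SNARE and synaptic vesicle genes 20 of 92 clones were lower and 2 higher at an unadjusted p under 0.05, where all clones gave 5.9% and 6.14%. These 92 clones were of 47 genes, and 7 of them were of Snap25. Their median log2 brightness was 9.455, against 8.27 for all clones, and the part of brightness in this count was not tested. The list's median ratio was -0.04 and lay below 0 on each of the 10 arrays, from -0.21 to -0.01. Sv2a, a vesicle glycoprotein, had -0.39 ± 0.08 (adjusted p = 0.0871), Syt4 -0.59 ± 0.12 (adjusted p = 0.0862) and Syt13 -0.78 ± 0.14 (adjusted p = 0.0564), and the last 2 were dim.

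Of 53 clones of 21 neuronal marker genes, Snap25 among them, 13 were lower and 2 higher at an unadjusted p under 0.05, where all clones gave 5.9% and 6.14%. Of these 53 clones 1 was called, the Snap25 clone that is also in the vesicle list, where 0.158% of all clones were called. The median ratio of the 53 clones was -0.04, with array medians from -0.16 to 0.01. Their median log2 brightness was 10.2, against 8.27 for all clones. Gad2, an enzyme of GABA synthesis, had -0.46 ± 0.09 (adjusted p = 0.082) and Gap43 -0.29 ± 0.09 (adjusted p = 0.21), whereas Nefm, a neurofilament, had 0.26 ± 0.08 (adjusted p = 0.22). The part of cell composition in the lower vesicle clones was not tested.

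Adam10, the protease that sheds the ectodomain of App and of many other surface proteins, fell by 0.66 (SE 0.09, adjusted p = 0.0247), 1.58-fold lower in the stressed pool, with arrays at -0.98, -0.64 and -0.26. Another pair of clones came close behind, at -0.55 ± 0.10 each with adjusted p-values of 0.0554 and 0.0555, and every array of both lay below 0. The fourth clone, dim on all arrays, had -0.15 ± 0.21. App itself, the amyloid precursor protein, passed the adjusted p but not the fold on 1 clone, with -0.49 ± 0.08 (adjusted p = 0.0472) and arrays at -0.59, -0.51 and -0.28. Of the other App clones 1 had -0.68 ± 0.12 (adjusted p = 0.0564), 1 had -0.43 ± 0.09 (adjusted p = 0.103) and 1 had -0.24 ± 0.09 (adjusted p = 0.305), and a dim clone had 0.17 ± 0.27. Thus 4 of 5 App clones lay below 0 by the labelled dyes and none was called. The study's PCR of App at 8 h and its published folds of App and Adam10 went the other way. In the list of App, its relatives, its secretases and its adaptors, 9 of 51 clones were lower and 5 higher without adjustment, where all clones gave 5.9% and 6.14%, with a median of -0.11.

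The other lower genes were of varied roles. Zcchc18, an X-linked zinc knuckle gene, fell on both of its clones, by 0.63 (SE 0.08, adjusted p = 0.0236) and 0.53 (SE 0.08, adjusted p = 0.0434), with all arrays of both below 0, from -1.03 to -0.35 and from -0.77 to -0.31. Tcf7l2, the transcription factor of Wnt signalling that is also abundant in the thalamus, fell by 0.52 (SE 0.08, adjusted p = 0.0472), from -0.86 to -0.23 over the arrays, and its other clones, both dim, had -0.31 ± 0.22 and -0.29 ± 0.24. Spg20, or spartin, a protein of lipid droplets and endosomes, fell by 0.55 (SE 0.09, adjusted p = 0.0454), with -0.05 ± 0.14 on a dim clone, and Kazn, or kazrin, by 0.58 (SE 0.09, adjusted p = 0.0356) on 1 of 4 clones, all of which lay below 0. Fry, a scaffold of dendrite and spindle kinases, and Cd200, the neuronal ligand that restrains microglia, fell by 0.58 (SE 0.09, adjusted p = 0.0392) and 0.60 (SE 0.09, adjusted p = 0.0392), and in neither did the stressed pool exceed the empty spots on any array. The RIKEN gene C030034I22Rik fell on 1 of 16 clones, by 0.72 (SE 0.11, adjusted p = 0.0434), with -0.49 to 0.40 on the others, and an unnamed EST fell as far, by 0.72 (SE 0.08, adjusted p = 0.0236). Among 24 clones of thalamic markers Tcf7l2 was the only call, where 0.158% of all clones were called. Their median was -0.13, with array medians from -0.30 to 0.06, while Prkcd, another thalamic marker and bright on all arrays, had 0.22 ± 0.08 (adjusted p = 0.29). The part of neighbouring tissue in the Tcf7l2 value was not tested.

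Higher clones were fewer by name and many were dim. Foxred2, an oxidoreductase of protein degradation in the endoplasmic reticulum, rose by 0.61 ± 0.08 (adjusted p = 0.0236), 1.52-fold higher in the stressed pool, with arrays at 0.30, 0.59 and 0.97, all brighter than the empty spots. Tcof1, the treacle protein of ribosomal RNA synthesis, rose by 0.63 ± 0.08 (adjusted p = 0.0236), with arrays at 0.42, 0.68 and 0.85, while a dim clone of it had -0.28 ± 0.28. The RIKEN gene 1600014C10Rik rose by 0.67 ± 0.09 (adjusted p = 0.0236) on 1 of 3 clones, and the other 2, both dim, had -0.37 ± 0.18 and -0.23 ± 0.25. A clone similar to cathepsin O rose by 0.68 ± 0.08, with arrays between 0.52 and 0.98.

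Of the higher clones 7 were dimmer than the empty spots in both dyes on all arrays, and for them no fold is given. They include the largest ratios, 1700026J12Rik at 1.02 ± 0.17 (adjusted p = 0.0472), an unnamed EST at 0.91 ± 0.12 (adjusted p = 0.0239), Lsm5, of the spliceosomal and decay rings, at 0.85 ± 0.11 (adjusted p = 0.0236), and Prc1, which bundles microtubules in dividing cells, at 0.79 ± 0.11 (adjusted p = 0.0236). Ogfod2 had 0.70 ± 0.09 (adjusted p = 0.0236) and Hcst, the DAP10 adaptor of immune cells, 0.64 ± 0.10 (adjusted p = 0.0434). Prc1 had 1 array at -0.02 and the others up to 1.47, and its mean was 1.13 where the stressed pool carried Cy5 and 0.45 where it carried Cy3. Lsm5 differed alike, with 1.27 and 0.42. Among 22 clones of microglia and macrophage markers Hcst was the only call, where 0.158% of all clones were called. In this list 2 were higher and 1 lower without adjustment (13.6% in all, against 12% of all clones), and the median was 0.04. Of the 18 lower clones 2 were this dim, and 9 clones of each direction were brighter than the empty spots in both dyes on every array.

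**Figure D2:**
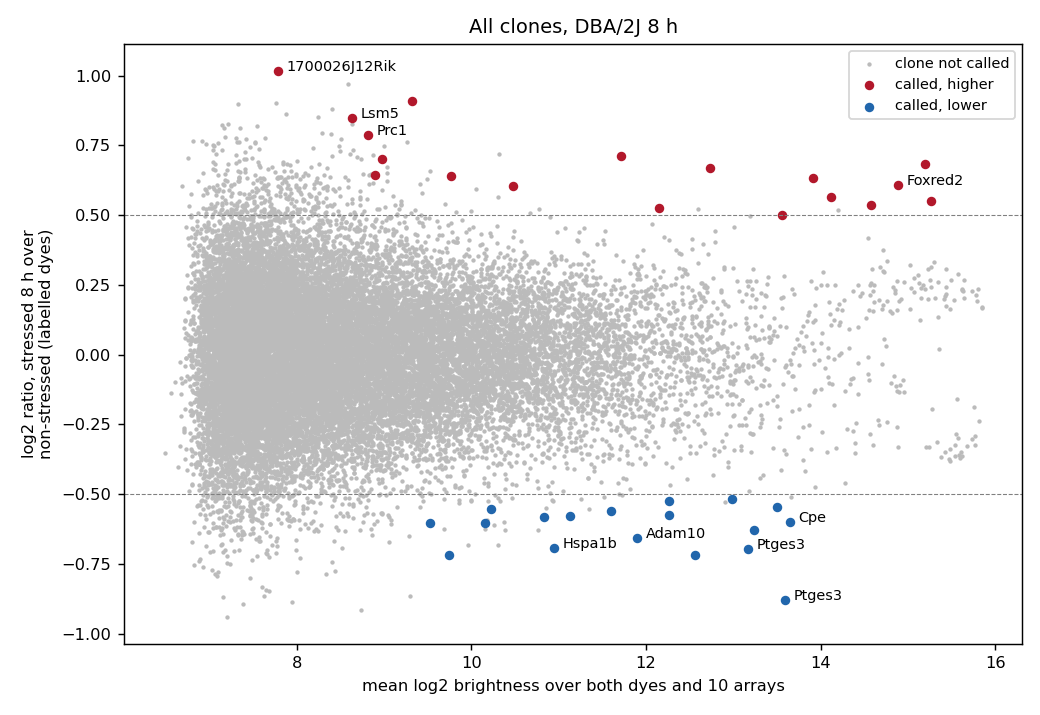
Log2 ratio (vertical axis) against the mean log2 brightness over both dyes and 10 arrays (horizontal axis) of the 22824 clones, with clones called higher in red and clones called lower in blue, and dashed lines at the fold threshold. The median brightness was 11.9 for the clones called higher and 12.1 for those called lower, against 8.27 for all clones, and 1700026J12Rik (7.78), Lsm5 (8.63) and Prc1 (8.82) lie near the median of all clones.

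Clones just outside the threshold were named with the same kind of values. Magee1, a brain-enriched member of the MAGE family, had -0.53 ± 0.09 (adjusted p = 0.0518) and -0.50 ± 0.09 (adjusted p = 0.0558) on its 2 clones, and Insig1, which retains the sterol sensor in the endoplasmic reticulum, had -0.51 ± 0.09 (adjusted p = 0.0541). Just inside it lay Ssr1, AI841370 at 0.64 ± 0.11 and AI843346 at 0.61 ± 0.10 (adjusted p = 0.0472 each). Of all clones, 82 passed the fold with an adjusted p between 0.05 and 0.1.

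Of the lists without calls, cytosolic ribosomal proteins stood highest among the larger ones. Of 107 clones of 76 genes, 32 had an unadjusted p under 0.05, 27 of them higher and 5 lower, and none was called. All clones gave 6.14% higher and 5.9% lower. The median log2 brightness was 11.0 in this list and 8.27 for all clones, and the part of brightness in the count was not tested. The list's median ratio was 0.13, above 0 on each array from 0.02 to 0.18. It stayed above 0 under every other scaling tried, with the lowest value, 0.06, under median centring. Rps21 had 0.40 ± 0.08 (adjusted p = 0.0928), Rpl7a 0.42 ± 0.09 (adjusted p = 0.0939) and Rps14 0.37 ± 0.10 (adjusted p = 0.162). Many of these genes have near-identical processed copies whose transcripts a cDNA clone would also bind. Mitochondrial ribosomal proteins, by contrast, had 1 clone higher and 1 lower of 88 (2.27% in all, against 12% of all clones), with a median of 0.06.

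Sterol and fatty acid synthesis leaned the other way, with 14 of 59 clones lower and 4 higher without adjustment, where all clones gave 5.9% and 6.14%. The median ratio was -0.12 and lay below 0 on all 10 arrays, from -0.22 to -0.01. These clones were of 33 genes and had a median log2 brightness of 9.21, against 8.27 for all clones. The part of brightness in this count was not tested. Hmgcs1, which makes the substrate of the rate-limiting reductase, had -0.44 ± 0.09 (adjusted p = 0.0839) and Scd1, the desaturase of fatty acids, -0.52 ± 0.11 (adjusted p = 0.0856) on 1 of 3 clones. Stard4, a carrier of cholesterol, had 0.46 ± 0.10 (adjusted p = 0.12) on 1 dim clone, and -0.09 ± 0.12 and 0.06 ± 0.25 on the others.

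Among genes of the glucocorticoid receptor and its targets none of 51 clones was called and the median was -0.02. Without adjustment 3 were higher and 6 lower (17.65% in all, against 12% of all clones). Fkbp5, a receptor partner that glucocorticoids induce, had 0.45 ± 0.12 (adjusted p = 0.181), Mt1, a metallothionein, 0.38 ± 0.09 (adjusted p = 0.136), and Glul, the glutamine synthetase of astrocytes, 0.32 ± 0.08 (adjusted p = 0.16), and these were its 3 higher clones. Its 6 lower clones were of Ncoa1, Klf9, Dusp1 and Cdkn1a, and the lowest, of the receptor coactivator Ncoa1, had -0.52 ± 0.14 (adjusted p = 0.173). Of 31 clones of immediate early genes, which neurons induce within minutes, none was called. Only 1 (3.23%, against 12% of all clones), Ier5 at -0.32 ± 0.11 (adjusted p = 0.255), passed the unadjusted threshold. Of 20 clones of PVN and stress axis peptides none was called, and Gal, the galanin gene, had the smallest p, with -0.58 ± 0.13 (adjusted p = 0.122) on a clone that was dim on all arrays. Red blood cell genes had the highest median of all lists, 0.24 over 10 clones, with array medians from -0.15 to 0.79. Their median log2 brightness was 7.65, against 8.27 for all clones. Without adjustment 2 clones were higher (20%, against 6.14% of all clones), and none was called. The study's own published list for this comparison and the genes its text names covered 132 clones of 59 genes on this array. Of these 5 were called higher and 15 lower, where 0.0789% of all clones were called in each direction. Since that list was chosen on these arrays, its count is no independent evidence.

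**Figure D3:**
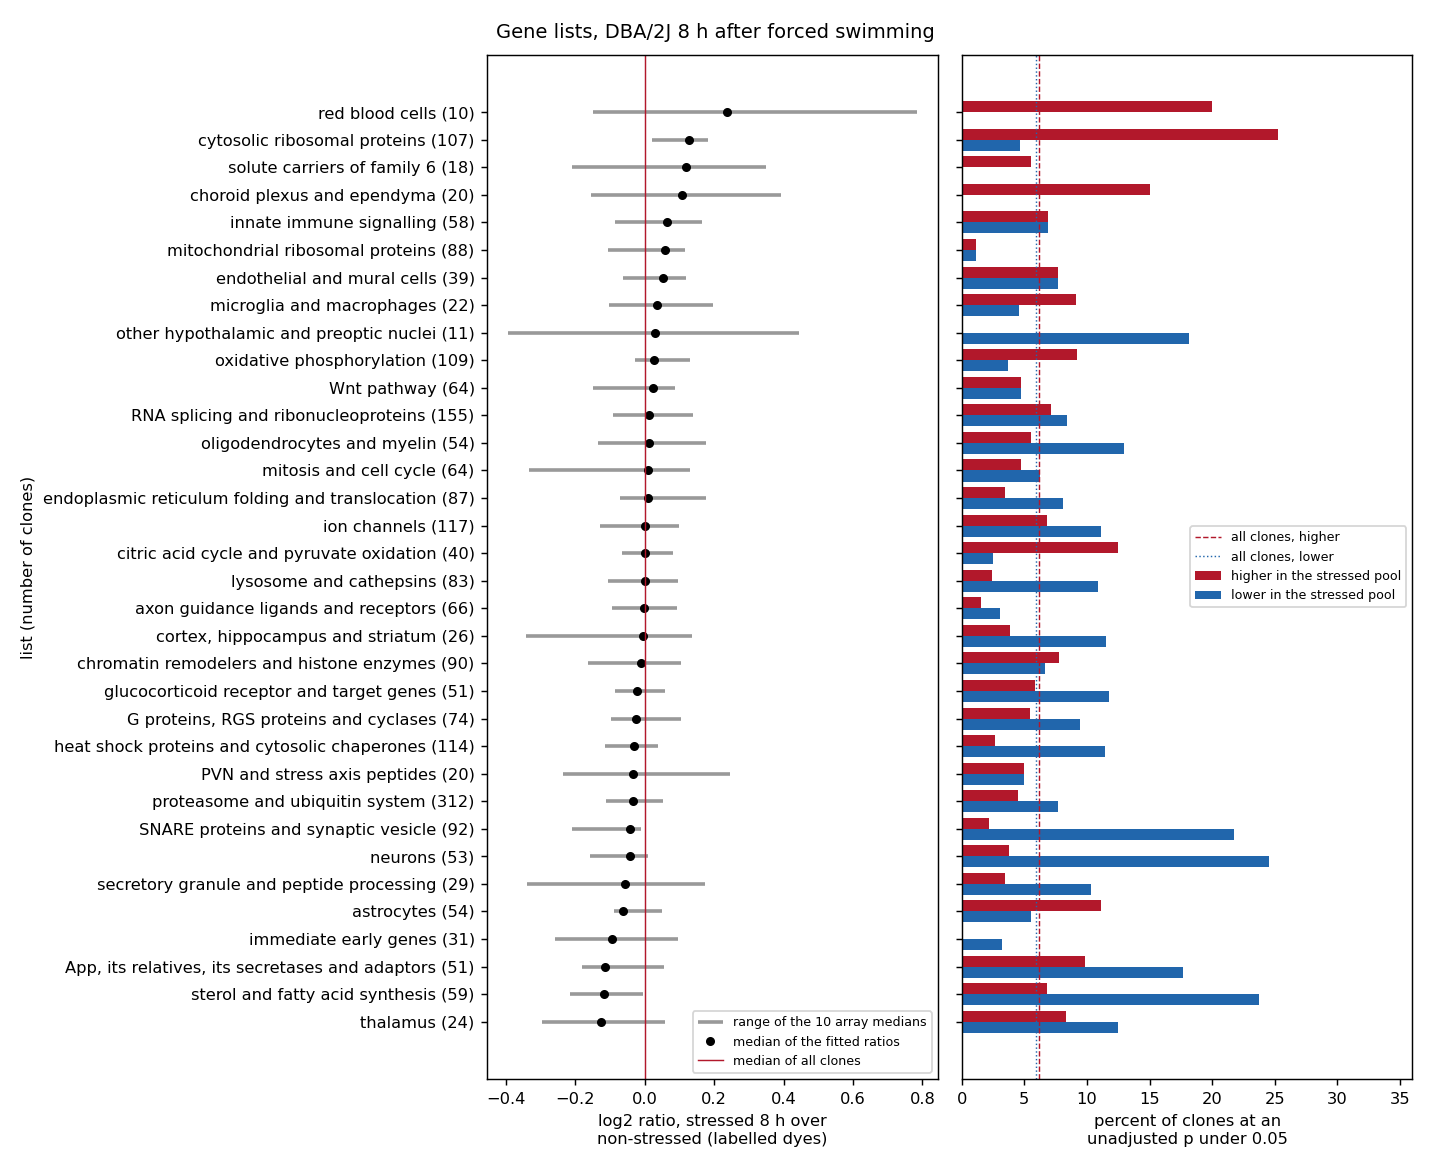
Left, the median log2 ratio of each gene list (points), with the range of its medians on the 10 arrays (grey bars) and the median of all clones (red line). Right, the percent of each list's clones that were higher (red) or lower (blue) in the stressed pool at an unadjusted p under 0.05, with lines at the 6.14% and 5.9% of all clones. Cytosolic ribosomal proteins reach furthest on the higher side, and neuronal markers, sterol and fatty acid synthesis and synaptic vesicle genes on the lower side.

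Whether the 8 h ratios of DBA/2J differed from those of C57BL/6J was tested on the 20 arrays of the 2 comparisons, which share no pool but were scanned on different days, so that strain and scan day cannot be told apart. The difference passed the same rule for 137 clones (0.6%), against 2374 with an unadjusted p under 0.05 (10.4%), 47 with a higher ratio in DBA/2J and 90 with a lower one, and 85 to 103 clones when any replicate was left out. Among them 18 were also called in DBA/2J alone, 7 higher and 11 lower, and 15 were called in C57BL/6J alone, where 19 clones in all were called (0.0832%). In 129 of the 137 the ratios had opposite signs, with 85 below 0 in DBA/2J and above 0 in C57BL/6J. Of the 137, 108 were called in neither comparison alone. They were chosen for a large difference on these arrays, which favours opposite signs, so these counts describe them and support nothing. The share of opposite signs over all clones was not counted. The 18 were likewise chosen on arrays that enter this test.

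Ptges3 differed most, with -0.88 in DBA/2J and 1.60 in C57BL/6J, a difference of -2.48 ± 0.12 (adjusted p = 9.4e-11). Its arrays ran over -1.14, -0.89 and -0.63 in DBA/2J, against 1.25, 1.63 and 1.90 in C57BL/6J, so that the arrays of the 2 comparisons did not overlap. The arrays are repeated hybridisations of the same pools, and the clone was picked for its difference on them, so the gap only describes it. The second Ptges3 clone had -0.70 in DBA/2J and 0.78 in C57BL/6J (difference -1.48 ± 0.13, adjusted p = 1.87e-06), while the bright clone that had not fallen in DBA/2J had 0.13 in DBA/2J and 0.00 in C57BL/6J (adjusted p = 0.81). Adam10 repeated this on 3 clones, with -0.66, -0.55 and -0.55 in DBA/2J against 1.21, 1.23 and 0.69 in C57BL/6J, and the first of these differed by -1.87 ± 0.13 (adjusted p = 5.58e-08). Insig1 had -0.51 and -0.37 in DBA/2J and 1.14 and 1.34 in C57BL/6J on its 2 brighter clones, differences of -1.65 ± 0.16 (adjusted p = 5.53e-06) and -1.70 ± 0.21 (adjusted p = 0.000102), although neither clone was called in DBA/2J alone.

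Snap25 had -0.56 in DBA/2J and 0.89 in C57BL/6J on the clone called above (difference -1.45 ± 0.13, adjusted p = 1.87e-06), and no other Snap25 clone differed between the strains. Both Zcchc18 clones, Tcf7l2, Cd200, Canx and C030034I22Rik also differed. The Canx difference was -0.78 (adjusted p = 0.00211), with -0.58 in DBA/2J and 0.20 in C57BL/6J, and that of Tcf7l2 was -0.80 (adjusted p = 0.00126), with -0.52 in DBA/2J and 0.29 in C57BL/6J. Of genes not called in DBA/2J alone, the glypican Gpc4 had -0.34 in DBA/2J and 1.05 in C57BL/6J (adjusted p = 8.22e-06), Dpysl2, a collapsin response mediator, -0.36 in DBA/2J and 0.94 in C57BL/6J on 1 of its 3 clones (adjusted p = 6.71e-06), and the clock repressor Bhlhe41 -0.46 in DBA/2J and 0.87 in C57BL/6J on 1 of its 4 clones (adjusted p = 0.000213). On the other side Foxred2 had 0.61 in DBA/2J and -0.35 in C57BL/6J (difference 0.96 ± 0.11, adjusted p = 7.77e-05), and Rgs2, a brake on Gq signalling, had 0.28 in DBA/2J and -0.62 in C57BL/6J on the brightest of its 3 clones (adjusted p = 0.000112). These genes were named after their values were seen. Hspa1b, Cpe, Lman2, Ssr1, Spg20, Kazn and Fry, in contrast, were called lower in DBA/2J without a called difference. The difference was -0.65 ± 0.25 for Hspa1b, -0.37 ± 0.12 for Cpe and -0.25 ± 0.17 for Lman2. The clone named heat shock protein, 1 rose in both strains, by 0.53 in DBA/2J and 0.77 in C57BL/6J.

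**Figure D4:**
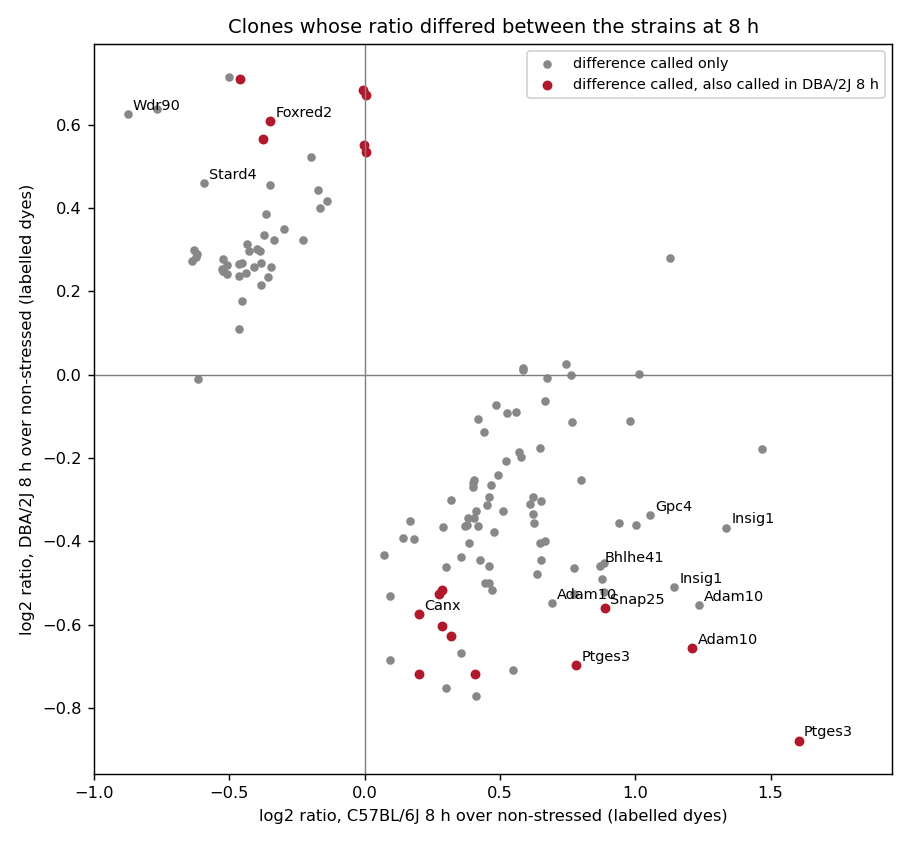
Log2 ratio 8 h after forced swimming over non-stressed of the 137 clones whose ratio differed between the strains, in DBA/2J (vertical axis) and in C57BL/6J (horizontal axis). Red points were also called in DBA/2J alone. Most points lie in the lower right, below 0 in DBA/2J and above 0 in C57BL/6J, with Ptges3 the farthest. The clones were chosen for this difference on the same arrays.

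The 8 h ratios were also set against those of DBA/2J 4 h after the swim. Both comparisons use the same non-stressed DBA/2J pool and were scanned on different days, so each one's values are given side by side. The 4 h mice swam later in the day, so that time since the swim and clock time of the swim cannot be told apart. The difference passed the rule for 229 clones (1%), against 2769 with an unadjusted p under 0.05 (12.1%), 128 with a higher ratio at 8 h and 101 with a lower one, and for 76 to 112 clones when any replicate was left out, while 35 clones were called at 4 h alone (0.153%) and none of the 36 called at 8 h was among them. Of those 36, 13 also differed from 4 h, 6 higher and 7 lower at 8 h. Since the 36 were chosen on the 8 h arrays that also enter this test, the count describes them and supports nothing. Ptges3 had -0.88 at 8 h and 0.29 at 4 h (difference -1.17 ± 0.13, adjusted p = 0.000165), and its arrays ran from -1.14 to -0.63 at 8 h and from 0.00 to 0.59 at 4 h, without overlap. As the clone was called on these 8 h arrays, the gap only describes it. Canx had -0.58 at 8 h and 0.45 at 4 h (adjusted p = 0.00457), and Cpe -0.60 at 8 h and 0.20 at 4 h (adjusted p = 0.0088). Snap25 had -0.56 at 8 h and 0.06 at 4 h (adjusted p = 0.0451), and Adam10 -0.66 at 8 h and -0.08 at 4 h (adjusted p = 0.0474). Hcst had 0.64 at 8 h and -0.35 at 4 h (adjusted p = 0.0052).

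Zcchc18 had -0.63 and -0.53 at 8 h and -0.62 and -0.45 at 4 h on its clones, values that share the non-stressed pool, so that a deviation of that pool would enter both alike, and its differences were -0.01 ± 0.15 and -0.08 ± 0.13. Several genes that were called lower at 4 h were not so at 8 h. Gnai2, an inhibitory G protein subunit, had 0.37 at 8 h and -0.99 at 4 h (difference 1.36 ± 0.26, adjusted p = 0.0144) on 1 of its clones, and the other had 0.17 at 8 h and -0.27 at 4 h. Vamp2, the vesicle SNARE that pairs with Snap25, had -0.20 at 8 h and -1.32 at 4 h (adjusted p = 0.0052), and Map1lc3a, of autophagosome membranes, 0.06 at 8 h and -1.12 at 4 h (adjusted p = 0.0045). All 3 clones were dim, and these genes were also named after their values were seen. Trh, dim as well, had 0.06 at 8 h and -0.75 at 4 h (difference 0.81, adjusted p = 0.0456).

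**Figure D5:**
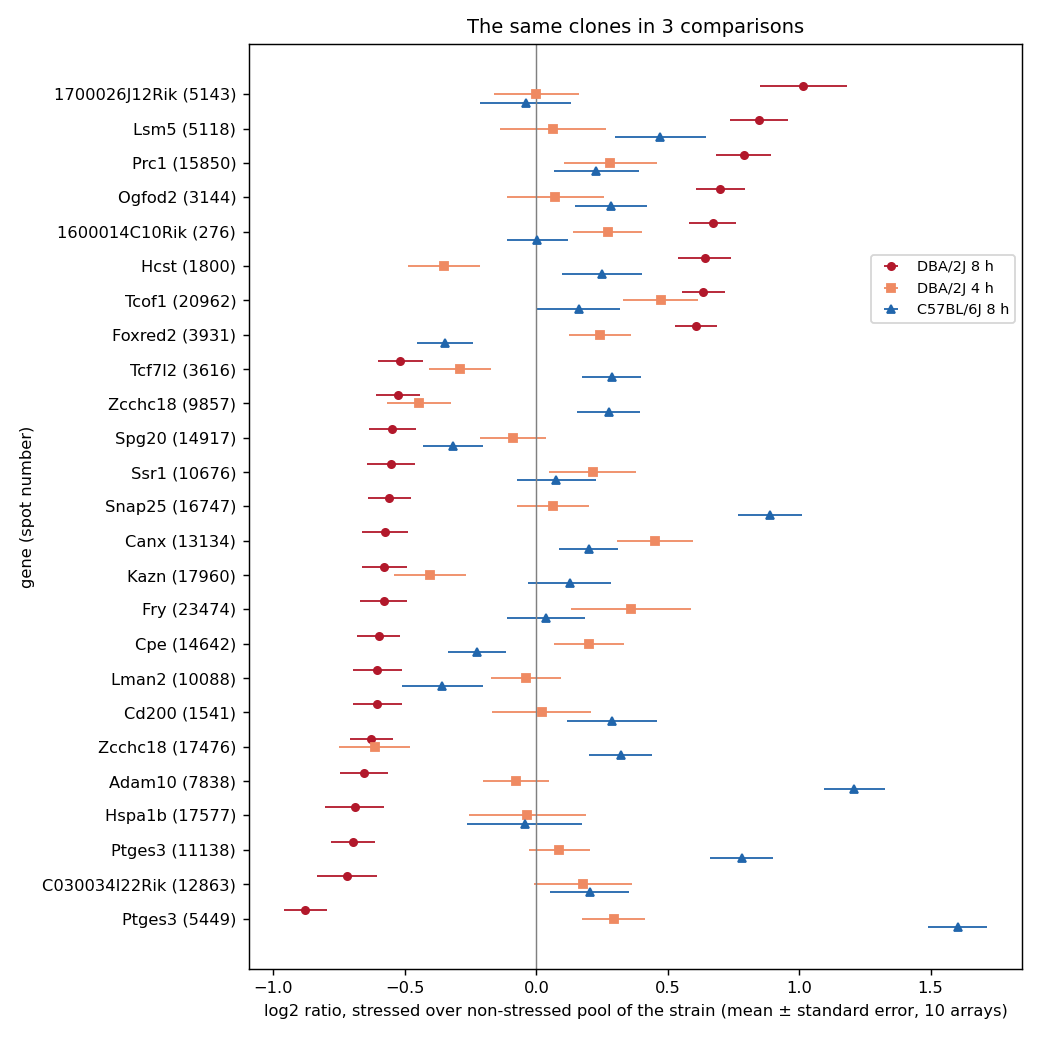
Log2 ratio of the stressed over the non-stressed pool of the same strain (horizontal axis, mean ± standard error over 10 arrays) of the 25 clones called in DBA/2J 8 h that carry a symbol, in DBA/2J 8 h (red circles), DBA/2J 4 h (orange squares) and C57BL/6J 8 h (blue triangles). The 2 DBA/2J comparisons share their non-stressed pool. Ptges3, Adam10 and Snap25 lie below 0 in DBA/2J 8 h and at 0.78 or more in C57BL/6J 8 h, and Zcchc18 lies below 0 at both times in DBA/2J.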

How the data were processed

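The authors scanned each slide in Cy5 and Cy3, quantified the spots with fixed circles at fixed gain and deposited the raw intensity and local background of 24192 spots per array. They also deposited a table of processed values, normalized by a procedure described elsewhere, which proved to hold log2 ratios in the direction of the labelled dyes (Spearman correlation 0.960 to 0.983 with the scanner ratios). Intensities were background-corrected (normexp, offset 50), normalized by global loess within each array without the 1368 control spots, turned to stressed over non-stressed, and fitted with lmFit and eBayes in limma 3.58.1 (R 4.3.3) with a term for dye orientation, over 22824 clones. No array was dropped or imputed. Differences between comparisons were fitted on 20 arrays.

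Array medians of intensity ranged over 192 to 277 for Cy5 and over 307 to 450 for Cy3, the background was 0 in at least 88.3% of the spots of every array, and the 95th percentile of 1170 empty spots was used as the brightness limit. Precision is limited by how many arrays there are (median standard error of a clone 0.170). Saturated and dim spots entered as measured. Of 1225 array pairs of the series none held identical values. Scan days 1 to 3 held 3, 4 and 3 arrays.

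Clones were named through RIKEN, EST or segment identifiers (7125), full gene names (1704) or name and symbol pairs of the study's supplement (404), with RefSeq symbols of GRCm38.p6. Named were every called clone with a symbol and the other clones of its gene, genes of the study's list (as counts, with App and Insig1 by value), called members and up to 4 members of smallest p from each of 24 function and 10 cell type lists, and the defining peptides. These members and lists were chosen with earlier results of these data known, and genes caught by a wildcard without belonging to a family were taken out afterwards. The fit was tested on simulated data. Alternatives changed the background (none subtracted), the normalization (print-tip loess, or centring on the median, or a common scale across arrays, or the processed values), the clones (bright ones only), the test (no dye term, the methods' t-test, the adjusted p alone), the arrays (either dye orientation, averaged orientations, each array left out, a joint fit of all 50) and the block (scan day, replicate number).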

Additional observations from a re-analysis of the deposited data

Results flagged for a closer look

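The ratio of DBA/2J at 8 h differed from that of C57BL/6J at 8 h, by limma on the difference itself, for 137 clones. Of the clones called in DBA/2J alone the difference was -2.48 and -1.48 for Ptges3, -1.87 for Adam10, -1.45 for Snap25, -1.12 for an EST (spot 9228), -0.95 and -0.80 for Zcchc18, -0.92 for C030034I22Rik, -0.89 for Cd200, -0.80 for Tcf7l2 and -0.78 for Canx. On the higher side it was 1.17 for AI847068, 0.96 for Foxred2, 0.94 for AI838129, 0.69 for the clone similar to cathepsin O, 0.67 for 1600014C10Rik, 0.55 for AI840610 and 0.53 for hypothetical protein LOC230863.

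The ratio at 8 h differed from that at 4 h in DBA/2J, by the same test, for 229 clones. Of the clones called at 8 h the difference was -1.17 and -0.78 for Ptges3, -1.03 for Canx, -0.80 for Cpe, -0.75 for the EST of spot 9228, -0.62 for Snap25 and -0.58 for Adam10. It was 1.11 for an EST (spot 281), 1.02 for 1700026J12Rik, 0.99 for Hcst, 0.94 for heat shock protein, 1, 0.89 for AI843346 and 0.88 for AI841370. In both tests the clones called in DBA/2J at 8 h were chosen on arrays that also enter the difference.

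No called clone had an array that stood apart from its other 9 by Dixon's criterion, among 36 tested.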

How the results depend on the processing

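All 36 called clones kept their sign under the alternatives of scaling, dye and block that gave them a value. Of these clones 35 rest on all 10 arrays together, since 1 call was left, whichever replicate was taken out. The count was 96 after median centring (32 higher and 64 lower), 9 without the dye term (4 and 5), 132 with the scan day as a random block, whose consensus correlation was negative (-0.075), and 114 in a joint fit of the series' 50 arrays. The joint limma fit no longer called Hspa1b (adjusted p = 0.195) or Fry (adjusted p = 0.0813). The methods' t-test gave 561 clones without and 89 with Benjamini-Hochberg adjustment. No clone was called with only the arrays of the stressed pool in Cy5 (0) or only those in Cy3 (0), where 5 arrays enter. None was called either with the 5 arrays of each orientation averaged (0), where all 10 arrays enter as 1 mean per orientation. Counts under the other settings were 25 to 47, with 15 higher and 32 lower in the processed values, and 13 higher and 24 lower among bright clones only.

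The 229 clones that differed from DBA/2J 4 h became 437 with the scan day block, 373 in the joint fit, 76 to 112 without a replicate and 0 with the replicate number as a block. The 137 that differed from C57BL/6J 8 h became 265, 216, 85 to 103 and, with the replicate block, 30. Arrays of the same number did not deviate together (correlations of -0.0164 to 0.0102), so the numbers do not pair the arrays. The cause of these shifts was not tested. Dim spots, weak agreement between arrays and 1 pool per condition limit every value.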
